A study of Arabidopsis thaliana with 9 samples.

Results

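The WRKY family of transcription factors was examined in peak lists of the histone mark H3K4me3 (histone H3 trimethylated at lysine 4) from Arabidopsis thaliana seedlings. Members were all protein-coding genes of the RefSeq gene table whose symbol is WRKY followed by digits only, which gave 67 of 27432 genes on chromosomes 1 to 5. The rule reads gene symbols only. For each gene and library the bp of called peak were summed over the gene body and 500 bp on both sides, here called the window. A gene was said to have a peak where the window held at least 200 bp of it.

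WRKY proteins bind the W-box, a short DNA element, through a domain that holds the amino acids for which the family is named. Many of them act in immunity, downstream of receptor kinases and MAP kinase cascades and in salicylic acid and jasmonate signalling, and others act in senescence, nutrient supply, pollen, seed and cell wall development. Members of Group I typically carry a pair of WRKY domains, those of Groups II and III a single one. H3K4me3 marks the part of transcribed genes near the start of transcription, so a peak is read as a marked gene and not as a level of transcript.

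The material was 12-day-old seedlings in the Col-0 background, grown in long days of 16 h light and 8 h dark at 23 °C on medium with 1% sucrose. The genotypes were wild-type Col-0, the mutant jmj28-2, named for the JmjC-domain protein JMJ28, and the mutant atx1/2, named for the Trithorax-type H3K4 methyltransferases ATX1 and ATX2. Each had 2 H3K4me3 libraries, and the 3 H3 samples, 1 per genotype, were not analysed here. Whether replicate libraries derive from separate cultures is not stated, so the p-values cover the spread among these libraries alone, which may be technical.

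The lists held 14291 to 14493 peaks, with median widths of 1801 to 1858 bp. They give no read counts, so sequencing depth is unknown and a change in length of a peak is not a measure of H3K4me3 level. Whole seedlings were used, so a mark present in few cells and a weak mark in all cells cannot be told apart. The peak lists give no check of the genotype labels.

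In each wild-type library 33 of the 67 WRKY genes carried H3K4me3 on the gene body. A peak in the window was present on 37 members in Col-0 replicate 1 and on 35 in replicate 2, which is 55.2% and 52.2% of the family. In the others the peak lay beside the gene or covered less than 200 bp of it. A peak of at least 200 bp on the gene body was found for 49.3% of WRKY genes and 62.1% of all protein-coding genes in each Col-0 library taken singly. Of the 115 genes named MYB and a number, another large transcription factor family, 27.8% and 26.1% had one. In all 6 libraries together 32 WRKY genes (47.8%) kept a peak on the gene body, beside 59.3% of all genes and 24.3% of MYB genes. These shares were not tested against each other.

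By count, the subgroups of the family differed in how many members were marked; the shares were not tested. The published subgroups, which rest on the WRKY domain, placed all 67 members. In Group IIa, the subgroup of WRKY18, WRKY40 and WRKY60, all 3 members had a peak on the gene body in both Col-0 libraries. In Group IId, whose proteins bind calmodulin, 6 of 7 had one, with WRKY74 as the exception. Group I had 10 of 13, without the endosperm gene WRKY10, the pollen gene WRKY34 and WRKY58. Group IIe had 4 of 7, without WRKY14, WRKY29 and WRKY35. In Group III, which includes many defence regulators, 3 of 12 had one, namely WRKY46, WRKY53 and WRKY70. Group IIc had 4 of 17 (WRKY23, WRKY28, WRKY48 and WRKY57) and Group IIb had 2 of 8 (WRKY6 and WRKY47).

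**Figure D1:**
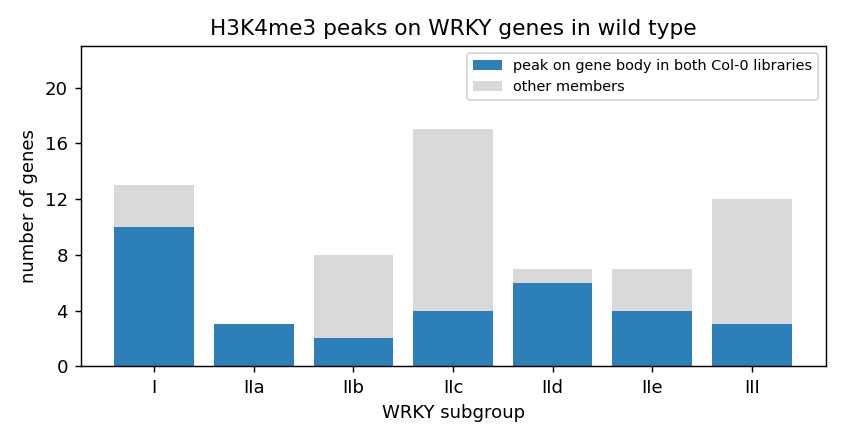
Number of WRKY genes (y axis) in each subgroup (x axis), with the genes that had at least 200 bp of H3K4me3 peak on the gene body in both Col-0 libraries in blue and the others in grey. Groups I, IIa and IId are mostly blue (10 of 13, 3 of 3 and 6 of 7), while Groups IIb, IIc and III are mostly grey (2 of 8, 4 of 17 and 3 of 12).

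In 27 members no library had any bp of peak in the window. They included genes known for roles in stem, flower, pollen or seed, namely WRKY12 and WRKY13, which act in cell wall formation of the stem and in flowering, WRKY34 and WRKY10. They also included genes of defence and starvation responses, namely WRKY29, placed in the MAP kinase cascade set off by bacterial flagellin, WRKY38, a repressor of basal defence, and WRKY75, which acts in phosphate starvation and senescence. WRKY22, the partner of WRKY29 in the flagellin cascade, was marked in every library, with 2191 and 2215 bp of peak in the wild type, 2189 and 2097 bp for jmj28-2 and 2172 and 2095 bp for atx1/2. All 6 values of WRKY22 lay between 2095 and 2215 bp, and the gene did not pass the limma test in either mutant (adjusted p = 0.790 and 0.774). The neighbouring genes WRKY64 and WRKY67 of Group III were also without a peak in all 6 libraries.

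For some members the window held only the end of a peak on the next gene. WRKY36, a repressor of the light-response gene HY5, had 264 and 323 bp in the wild type, 265 and 298 bp for jmj28-2 and 264 and 326 bp for atx1/2, all of it beside the gene body and from a peak on AT1G69800. WRKY51, which represses jasmonate responses together with WRKY50, had 549 and 614 bp in the wild type, 587 and 544 bp for jmj28-2 and 626 and 618 bp for atx1/2, from a peak on LIP1. WRKY43 had 558 and 860 bp in the wild type, 424 and 879 bp for jmj28-2 and 690 and 758 bp for atx1/2, from a peak on KPHMT1 that reached 200 bp of its gene body in 3 libraries. These were the 3 narrowest values among the 35 members with a peak in all 6 libraries. The genotypes overlapped on WRKY36 and WRKY43, and on WRKY51 both atx1/2 libraries lay just above those of Col-0.

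WRKY50 had 228 and 175 bp in the wild type, 181 and 152 bp for jmj28-2 and 148 and 147 bp for atx1/2, also from a neighbour, AT5G26180. WRKY55, which lies next to WRKY54, had 165 to 217 bp in every library from a peak on CTEXP. WRKY30, a gene induced by oxidative stress, had 151 bp in Col-0 replicate 1 and 280 bp in jmj28-2 replicate 2 and 0 elsewhere, from weak peaks on AGP41. None of these 3 genes had any peak on its own body. In Col-0 replicate 1, 11 of the 33 members with a peak on the gene body shared that peak with at least 200 bp of another protein-coding gene.

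Across the 32 members with a peak on the gene body in every library, the mean length in the Col-0 window ran from 1644 bp (WRKY48) to 3290 bp (WRKY33), with a median of 2068 bp. The median over the 16257 genes of all kinds that met the same condition was 1910 bp. Replicate libraries differed little, with a median SD over these members of 52.7 bp in the wild type, 48.1 bp for jmj28-2 and 50.9 bp for atx1/2. Peak length did not follow gene length, with Pearson's r = -0.172 and Spearman's rho = 0.00916 across the 32 genes, which share their libraries. As a share of the window the peaks covered from 18.1% on WRKY19, a long gene that joins a WRKY domain to immune-receptor domains, to 93.1% on WRKY33.

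WRKY33, which activates camalexin synthesis and resistance to necrotrophic fungi, had the longest peak of the family, with 3266 and 3313 bp in the wild type, 3244 and 3309 bp for jmj28-2 and 3228 and 3295 bp for atx1/2. The peak covered the whole gene body in every library and ran on over AT2G38480. WRKY32 followed with 2817 and 2844 bp in the wild type, 3250 and 2798 bp for jmj28-2 and 2754 and 2837 bp for atx1/2. These were made up of 2 peaks in each library, 1 shared with NFD1 and 1 with AT4G30940. WRKY69 had 2778 and 2782 bp in the wild type, 2792 and 2729 bp for jmj28-2 and 2847 and 2652 bp for atx1/2. For these 3 genes the genotypes overlapped in length, apart from the single high jmj28-2 library of WRKY32. On WRKY69 the peak also covered AT3G58720 and filled 92.5% of the window in Col-0. Its score in the authors' lists was 278 and 288 in Col-0, 582.5 and 594 in jmj28-2 and 546 and 539 in atx1/2, a difference that was not tested.

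**Figure D2:**
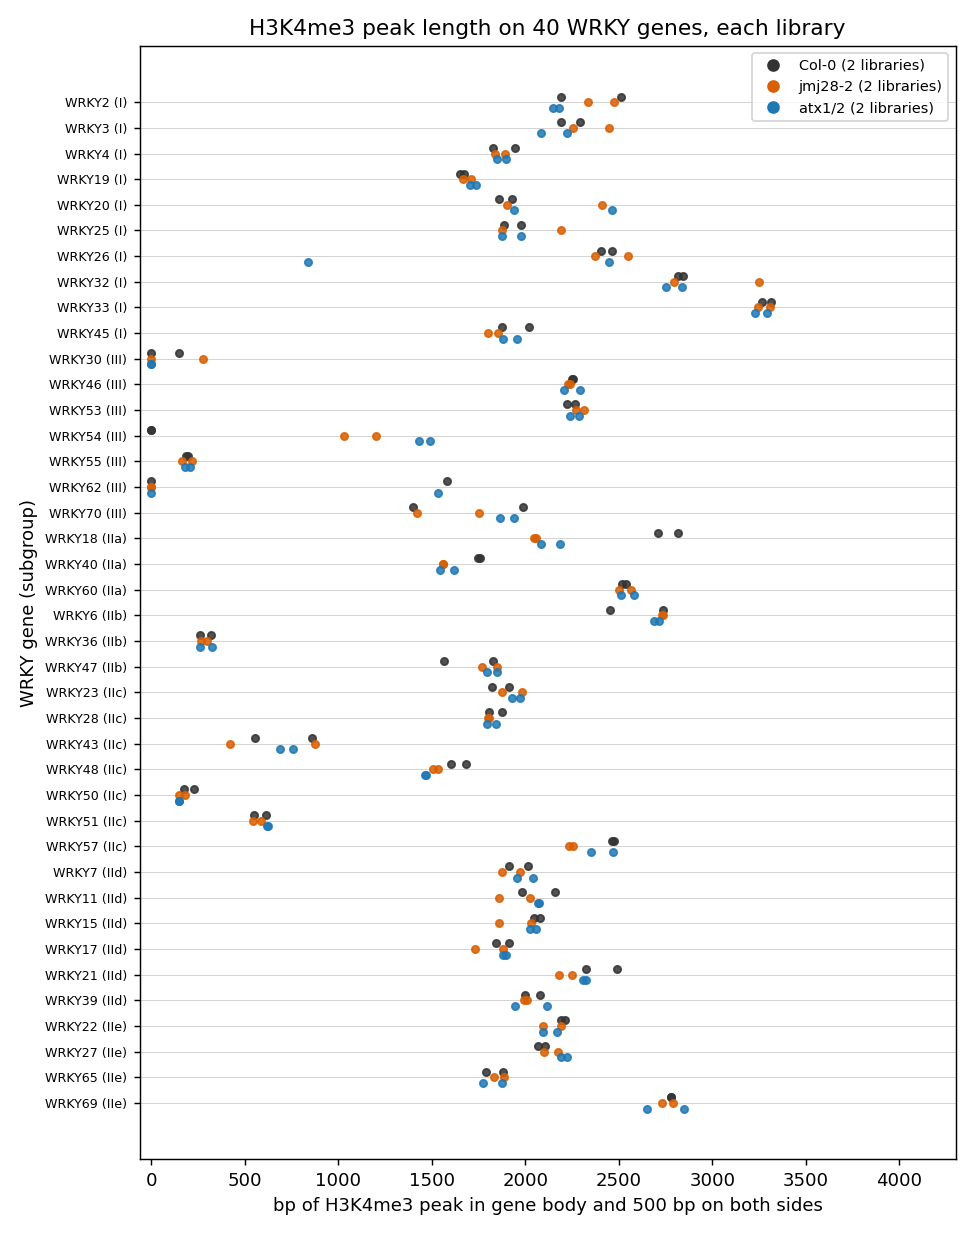
Bp of H3K4me3 peak in the window (x axis) of the 40 WRKY genes with any peak of 200 bp in at least 1 library (y axis, subgroup in brackets), with 1 point per library. Most genes have their 6 points close together, WRKY54 has points at 0 in Col-0 only, WRKY18 has both Col-0 points to the right of the mutants, and WRKY26, WRKY62 and WRKY30 have single libraries apart.

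The peak score, the authors' value for each peak, was used to rank peaks within a list. The highest-scoring family member in Col-0 was again WRKY33, at a mean percentile of 98.2 of the lists. WRKY11 and WRKY15 of Group IId reached 94.0 and 90.4, WRKY32 reached 91.3 and WRKY3, which acts against necrotrophic fungi, reached 90.2. The lowest were WRKY70 at 10.02, WRKY28, an activator of the salicylic acid synthesis gene ICS1, at 10.1, WRKY40 at 14.1 and WRKY6 at 17.6. Of the 32 genes, 9 (28.1%) lay under the 25th percentile, beside 16.5% of all genes with such a peak. The median was 65.4 for the WRKY genes and 59.2 for all genes. The marked genes thus ran from peaks near the top of the lists to peaks near the bottom.

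**Figure D3:**
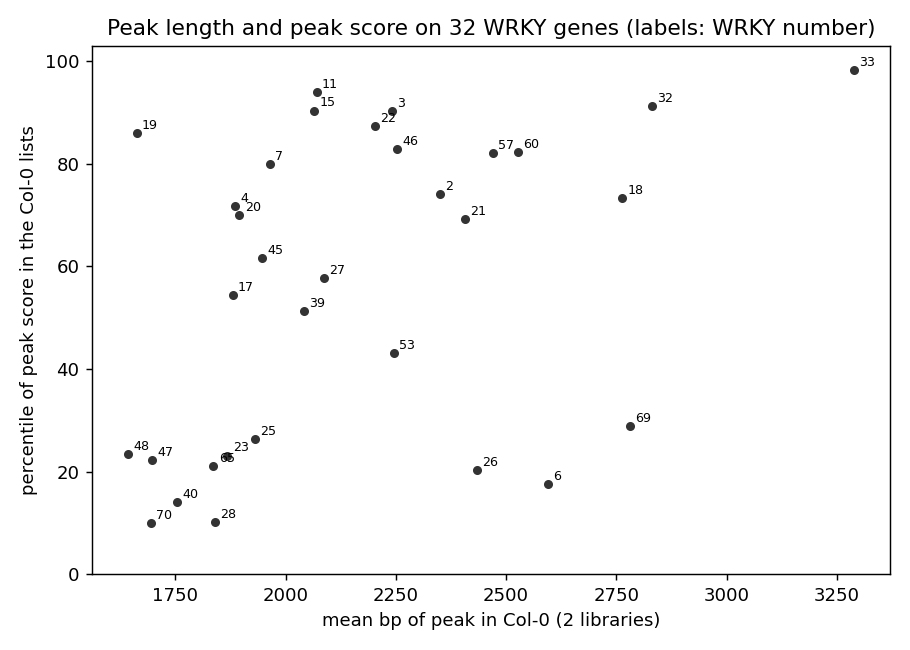
Mean bp of peak in the Col-0 window (x axis) against the mean percentile of the peak score within the 2 Col-0 lists (y axis), for the 32 WRKY genes with a peak on the gene body in all libraries; numbers are WRKY numbers. WRKY33 stands at the top right (3290 bp, 98.2), and WRKY70, WRKY28 and WRKY40 lie at the bottom (10.02, 10.1 and 14.1).

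Against wild type, limma called 2 members in each mutant, and they were the same pair, WRKY54 and WRKY18. Changes were tested with limma on log2(bp of peak in the window + 200), a scale that understates changes of short peaks, over 18808 genes of which 38 were WRKY genes. The adjusted p (Benjamini-Hochberg) was taken over all genes tested, with a threshold of 0.05. In jmj28-2, 2 of 38 members passed, beside 1.24% of all genes tested. In atx1/2 it was also 2 of 38, beside 1.58%. In each mutant WRKY18 was shorter, where the background was 0.893% in jmj28-2 and 0.824% in atx1/2, and WRKY54 was longer, where it was 0.351% and 0.76%. Both comparisons share the 2 Col-0 libraries, so they are not independent. WRKY54 entered the test only through its mutant libraries, so its call is given as a description of the peak lists.

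The median change of the family was close to that of all genes. The median log2 change of the 38 tested members was -0.0125 for jmj28-2 and -0.0053 for atx1/2, against -0.0154 and -0.0090 over all genes tested. With the 2 called genes included, 6 of 38 members (15.8%) had an unadjusted p under 0.05 in jmj28-2, beside 8.18% of all genes tested, and 5 (13.2%) in atx1/2, beside 8.73%. Both jmj28-2 libraries were below both Col-0 libraries for 9 of 38 members (WRKY15, WRKY18, WRKY21, WRKY22, WRKY40, WRKY45, WRKY46, WRKY48 and WRKY57), which is 23.7% beside 26.0% of all genes tested. They were above for 2 members, WRKY53 and WRKY54, beside 10.1% of all genes. In atx1/2 the libraries were below for 5 members (WRKY2, WRKY18, WRKY22, WRKY40 and WRKY48), which is 13.2% beside 23.1%. They were above for 6 members (WRKY19, WRKY20, WRKY23, WRKY27, WRKY51 and WRKY54), which is 15.8% beside 13.7%. These shares of non-overlapping libraries lie near or under the background and are not results about the family.

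**Figure D4:**
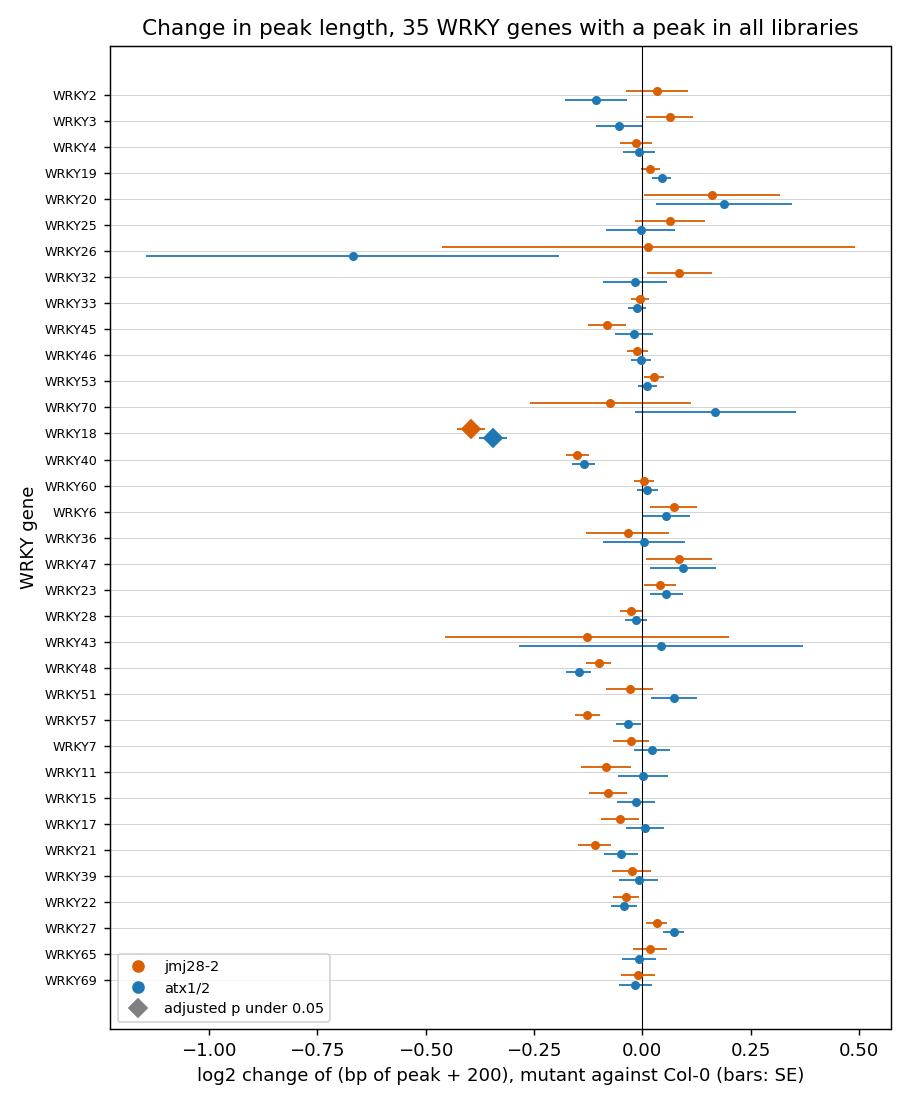
Log2 change of (bp of peak + 200) in jmj28-2 (orange) and atx1/2 (blue) against Col-0 (x axis, bars are SE from limma) for the 35 WRKY genes with a peak in all 6 libraries (y axis). Diamonds mark adjusted p under 0.05: WRKY18 alone has them, at -0.39 in jmj28-2 and -0.34 in atx1/2, and WRKY26 has a wide bar in atx1/2.

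WRKY54 gained a peak in both mutants. With WRKY70 it acts in salicylic acid signalling and holds back leaf senescence. Its window had 0 bp in both Col-0 libraries, 1029 and 1205 bp for jmj28-2, and 1434 and 1492 bp for atx1/2. Thus no Col-0 library had a peak and all 4 mutant libraries had one, on the gene itself (978 and 1059 bp of its body in jmj28-2, 1230 and 1273 bp in atx1/2) and on no other gene. The limma adjusted p was 0.000350 in jmj28-2 and 0.000184 in atx1/2. Both Col-0 libraries at 0 add no spread to this p, which is then likely too small. The gene also met the filter of 200 bp in at least 2 libraries only through the mutants, so this p adds no support to the gain. No fold is given, since the Col-0 lists have no peak there.

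The gained peak was a weak one. In jmj28-2 it lay at chromosome 2, 17001551 to 17002579 (TAIR10) with a score of 48.7 in replicate 1, and at 17001470 to 17002674 with a score of 37.0 in replicate 2. In atx1/2 it lay at 17001299 to 17002732 with a score of 120 and at 17001256 to 17002747 with a score of 99.7. These scores stood at percentiles 4.98 and 3.50 of the jmj28-2 lists and 11.9 and 9.85 of the atx1/2 lists. At a minimum score of 100, 1 atx1/2 library kept the peak and WRKY54 could not be tested. Gain of a peak was seen in 1 of 67 members in each mutant, beside 0.27% of all genes in jmj28-2 and 0.583% in atx1/2. Loss was seen in 0 of 67 members in each, beside 0.576% and 0.488%.

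No such gain was seen on WRKY70, the partner of WRKY54. It had 1988 and 1402 bp of peak in the wild type, 1421 and 1752 bp for jmj28-2 and 1942 and 1868 bp for atx1/2. The Col-0 libraries differed from each other by more than the genotypes did, with log2 changes of -0.07 ± 0.185 (SE) for jmj28-2 and 0.17 ± 0.185 for atx1/2 (limma adjusted p = 0.956 and 0.843). WRKY46, which acts with WRKY54 and WRKY70 in salicylic acid responses, had 2258 and 2249 bp in the wild type, 2238 and 2231 bp for jmj28-2 and 2205 and 2291 bp for atx1/2. WRKY53, which promotes leaf senescence, had 2222 and 2268 bp in the wild type, 2270 and 2315 bp for jmj28-2 and 2290 and 2240 bp for atx1/2. On WRKY53 the jmj28-2 libraries lay just above Col-0, and neither gene passed the test.

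WRKY18 was the 1 called member with a peak in every library. WRKY18, WRKY40 and WRKY60 form complexes with each other and hold back basal defence. The WRKY18 window had 2816 and 2710 bp of peak in the wild type, 2049 and 2058 bp for jmj28-2 and 2085 and 2184 bp for atx1/2. All 4 mutant libraries were below both Col-0 libraries. Its log2 change came to -0.39 ± 0.032 (SE) for jmj28-2 and -0.34 ± 0.032 for atx1/2 (limma adjusted p = 0.0203 and 0.0262).

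The bp that WRKY18 lost lay mostly beyond its gene body. In Col-0 a single peak ran from WRKY18 over AT4G31805, for which the RefSeq table gives the name POLAR, a protein of the stomatal lineage, at chromosome 4, 15382785 to 15386931 in replicate 1 and 15382891 to 15386721 in replicate 2. In the mutants the peak ended within WRKY18, for example at 15382915 to 15384963 in jmj28-2 replicate 1 and 15382852 to 15384936 in atx1/2 replicate 1. On the body of POLAR there were 1652 and 1442 bp in Col-0 and 0 in all 4 mutant libraries (limma adjusted p = 0.000658 and 0.000546 over gene bodies).

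Over the body of WRKY18 alone the length was 2263 ± 74.95 bp in the wild type (SD, n = 2), 2054 ± 6.36 bp for jmj28-2 and 2135 ± 70.0 bp for atx1/2. The log2 change was then -0.13 and -0.08, and the call was lost in both mutants (limma adjusted p = 0.473 and 0.664). The call of the window was also lost with the replicate number as a block (adjusted p = 0.127 and 0.143), which left the log2 changes at -0.39 and -0.34. Without any 1 of the Col-0 or jmj28-2 libraries it was lost in jmj28-2, where leaving out single libraries gave adjusted p of 0.0464 to 0.139, and without any 1 of the 6 libraries it was lost in atx1/2 (0.0855 to 0.137). The log2 change stayed between -0.42 and -0.37 in jmj28-2 and between -0.37 and -0.31 in atx1/2 when single libraries were left out.

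WRKY40 gave a smaller difference of the same kind. Its window had 1761 and 1748 bp in the wild type, 1560 and 1563 bp for jmj28-2 and 1618 and 1543 bp for atx1/2, so all mutant libraries were below Col-0. The change came to -0.15 ± 0.0264 on the log2 scale (SE) for jmj28-2 and -0.13 ± 0.0264 for atx1/2, and neither passed (limma adjusted p = 0.254 and 0.263). In Col-0, 138 and 172 bp of the window came from the end of a peak on AT1G80850, which in the mutants stopped outside the window. On the WRKY40 body the lengths were 1395 ± 7.78 bp in the wild type (SD, n = 2), 1387 ± 8.48 bp for jmj28-2 and 1399 ± 8.48 bp for atx1/2, which overlapped. WRKY60, the third of the group, had 2537 and 2516 bp in the wild type, 2500 and 2568 bp for jmj28-2 and 2514 and 2584 bp for atx1/2, and the genotypes overlapped.

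**Figure D5:**
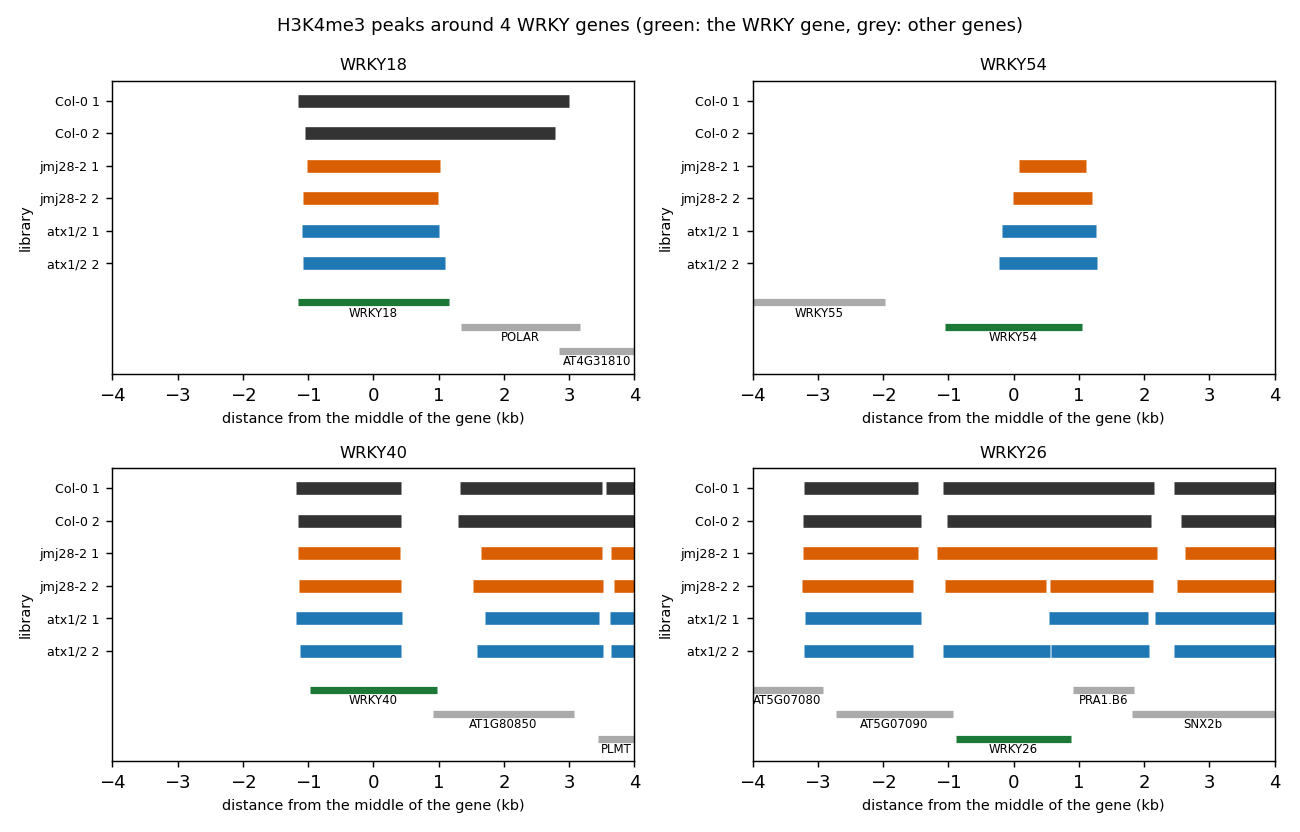
Called H3K4me3 peaks (bars, 1 row per library) within 4 kb of the middle of WRKY18, WRKY54, WRKY40 and WRKY26 (x axis, kb); gene bodies of the RefSeq table are drawn below, the WRKY gene in green. The Col-0 peak of WRKY18 reaches across POLAR and the mutant peaks do not, WRKY54 has peaks in the 4 mutant libraries only, WRKY40 keeps its own peak in all 6, and the peak over WRKY26 is whole in Col-0 and jmj28-2 replicate 1, split in 2 libraries and reduced to the neighbour's part in atx1/2 replicate 1.

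WRKY26, which acts in heat tolerance with WRKY25 and WRKY33, had a short length of peak in a single library. Its scores were lower than in Col-0 in both jmj28-2 libraries. Its window had 2463 and 2406 bp in the wild type, 2551 and 2373 bp for jmj28-2 and 837 and 2449 bp for atx1/2. The 837 bp of atx1/2 replicate 1 belonged to a peak over the neighbours PRA1.B6 and SNX2b, and 337 bp of it lay on WRKY26. The log2 change in atx1/2 was -0.67 ± 0.477 (SE) and did not pass (limma adjusted p = 0.773), and without atx1/2 replicate 1 it was 0.01. Where 1 peak spanned WRKY26 and its neighbours, it scored 226 and 180 in the Col-0 libraries and 55.3 in jmj28-2 replicate 1. The peaks on WRKY26 itself were weak where they stood alone, with scores of 44.5 in jmj28-2 replicate 2 and 32.5 in atx1/2 replicate 2. The neighbours' peak, which also reached WRKY26, scored 48.6 in jmj28-2 replicate 2, but 264 and 202 in the atx1/2 libraries. A peak over WRKY26 and its neighbours is not the same measure as a peak on WRKY26 alone, so no direction is given for atx1/2. These differences in score were not tested. At a minimum score of 100 neither jmj28-2 library had any peak in the window, and in atx1/2 there remained the 837 and 812 bp of the neighbour's peak. WRKY25 had 1885 and 1977 bp in the wild type, 1876 and 2190 bp for jmj28-2 and 1975 and 1877 bp for atx1/2, with overlap of all genotypes.

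WRKY62, which with WRKY38 represses basal defence, had a peak of 1583 bp in Col-0 replicate 1 and of 1533 bp in atx1/2 replicate 1 and none in the other 4 libraries. Both covered the whole gene body of 1171 bp. Their scores were 20.5 and 51.4, which put the first at percentile 0.143 of its list. With presence in 1 library of each of 2 genotypes, no direction can be read from this gene.

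Other members with the largest changes did not pass the test. WRKY48, a repressor of basal defence, had 1686 and 1601 bp in the wild type, 1533 and 1505 bp for jmj28-2 and 1463 and 1468 bp for atx1/2. Its mutant libraries were all below Col-0, with log2 changes of -0.10 ± 0.0291 (SE) and -0.15 ± 0.0291 (limma adjusted p = 0.524 and 0.269). WRKY57, which acts in drought tolerance and in jasmonate-induced senescence, had 2473 and 2466 bp in the wild type, 2256 and 2235 bp for jmj28-2 and 2351 and 2472 bp for atx1/2. The jmj28-2 libraries were below Col-0, with a log2 change of -0.13 ± 0.0283 (limma adjusted p = 0.388), while the atx1/2 libraries overlapped Col-0.

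The largest increases each rested on single libraries. WRKY20 had 1928 and 1862 bp in the wild type, 2409 and 1903 bp for jmj28-2 and 1942 and 2464 bp for atx1/2, so 1 library of each mutant was about 500 bp longer. On the log2 scale it changed by 0.16 ± 0.157 (SE) for jmj28-2 and 0.19 ± 0.157 for atx1/2 (limma adjusted p = 0.822 and 0.792). WRKY32 in jmj28-2 changed by 0.09 ± 0.0742 (adjusted p = 0.798), from 1 high library. WRKY47 had 1566 and 1830 bp in the wild type, 1767 and 1851 bp for jmj28-2 and 1849 and 1796 bp for atx1/2, with changes of 0.09 ± 0.0764 and 0.10 ± 0.0764 (adjusted p = 0.806 and 0.787), where Col-0 replicate 1 was the low one.

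WRKY6, a regulator of senescence and a repressor of the phosphate exporter gene PHO1, had 2737 and 2452 bp in the wild type, 2736 and 2733 bp for jmj28-2 and 2713 and 2687 bp for atx1/2. Col-0 replicate 2 was lower than the other 5 libraries, and the log2 change in jmj28-2 was 0.07 ± 0.0541 (SE; limma adjusted p = 0.770). WRKY43 in jmj28-2 (-0.13 ± 0.328, adjusted p = 0.958) and WRKY51 in atx1/2 (0.07 ± 0.0533, adjusted p = 0.774) were the remaining members among the 4 largest in a direction, and both values came from neighbours' peaks as given above.

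WRKY2 and WRKY23, both with roles in development, carried a peak in all 6 libraries. WRKY2, which acts in the polarity of the zygote and in pollen, had 2190 and 2511 bp in the wild type, 2335 and 2477 bp for jmj28-2 and 2179 and 2148 bp for atx1/2. The atx1/2 libraries were just below Col-0, and neither mutant passed the test. WRKY23, which acts in auxin transport in roots and embryos, had 1911 and 1825 bp in the wild type, 1876 and 1981 bp for jmj28-2 and 1970 and 1929 bp for atx1/2. Its atx1/2 libraries were just above Col-0, again without passing.

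No member was called between the 2 mutants when all 6 libraries and all peaks were used. In the direct comparison of atx1/2 with jmj28-2, limma called 0 of 38 WRKY genes, beside 1.26% of all genes tested (0.388% shorter and 0.872% longer in atx1/2). Peaks present in both libraries of 1 mutant and in neither of the other were seen on 0 of 67 members, beside 0.233% lost and 0.609% gained in atx1/2 over all genes. At an unadjusted p under 0.05 there were 2 members (5.26%), WRKY54 and WRKY57, beside 7.19% of all genes tested. On WRKY54 the atx1/2 libraries were longer than those of jmj28-2 (1463 ± 41.0 against 1117 ± 124 bp, SD, n = 2, limma adjusted p = 0.386), and without jmj28-2 replicate 2 the difference passed (adjusted p = 0.0450). Without atx1/2 replicate 2 the log2 change of WRKY26 between the mutants was -1.36, which rests on the 837 bp of atx1/2 replicate 1. At a minimum score of 100 it was 2.36 (limma adjusted p = 9.44e-06). There jmj28-2 had 0 bp in both libraries and atx1/2 kept only the 837 and 812 bp of the neighbours' peak. That p comes from the score filter and is not a result about WRKY26. On WRKY57 the atx1/2 libraries were longer as well (2412 ± 85.6 against 2246 ± 14.8 bp, adjusted p = 0.629). The atx1/2 libraries were above both jmj28-2 libraries for 10 of 38 members, beside 20.8% of all genes, and below for 4, beside 15.0%. An adjusted p over the threshold does not show that the mutants act alike.

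Known partners and targets of WRKY proteins were taken as a list of 26 genes, of which 19 were tested. None of the 19 was called by limma in jmj28-2, atx1/2 or between the mutants, with 2, 3 and 2 genes at an unadjusted p under 0.05. These were 10.5%, 15.8% and 10.5% of the list, beside 8.18%, 8.73% and 7.19% of all genes tested. The counts in atx1/2 and between the mutants include FRK1, whose window held the end of a peak on AT2G19180. On the FRK1 body there were 35 bp in atx1/2 replicate 2 and 0 elsewhere. The MAP kinase cascade genes of the list and the partner genes MKS1, SIB1 and SIB2 were marked on the gene body in every library. MPK6, a MAP kinase of the flagellin cascade, had 1884 and 2031 bp in the wild type, 1868 and 1895 bp for jmj28-2 and 1909 and 2058 bp for atx1/2. MKS1, which links the kinase MPK4 to WRKY33, had 1768 and 1710 bp in the wild type, 1634 and 1619 bp for jmj28-2 and 1600 and 1663 bp for atx1/2.

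MPK3, which phosphorylates WRKY33, had 2578 and 2762 bp in the wild type, 3122 and 3051 bp for jmj28-2 and 2899 and 3125 bp for atx1/2. All mutant libraries were above Col-0, with log2 changes of 0.20 ± 0.0518 (SE) and 0.16 ± 0.0518 that did not pass (limma adjusted p = 0.493 and 0.543). In both jmj28-2 libraries and in atx1/2 replicate 2 the MPK3 peak also covered NAXT1, which it did not in Col-0.

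Among other genes of the list, ICS1 (EDS16 in the RefSeq table), the salicylic acid synthesis gene, had 2620 and 2497 bp in the wild type, 2507 and 2518 bp for jmj28-2 and 2647 and 2430 bp for atx1/2. NPR1, the salicylic acid receptor and coactivator, had 1875 and 2141 bp, 2034 and 1891 bp, and 1836 and 1955 bp in the same order. TTG1, a regulator of trichome fate, had 2161 and 2274 bp, 2197 and 2127 bp, and 2224 and 2227 bp. On these 3 genes the genotypes overlapped. The camalexin gene PAD3 and the defence marker PR1 had 0 bp in all 6 libraries.

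A further 5 genes carry a WRKY number among their RefSeq synonyms and not as their symbol, so the rule left them out, and they were looked up after the members' values were seen. ZAP1 (WRKY1) had 1745 and 1881 bp in the wild type, 1840 and 1843 bp for jmj28-2 and 1853 and 1868 bp for atx1/2. RRS1 (WRKY52), an immune receptor that carries a WRKY domain, had 1613 and 1951 bp, 1615 and 1584 bp, and 1589 and 1610 bp. TTR1 (WRKY16), of the same type, had 2583 and 2475 bp, 3171 and 2632 bp, and 2583 and 2517 bp. TTG2 (WRKY44) and ABO3 (WRKY63) had 0 bp in all 6 libraries. The RRS1 peak also covered RPS4 in every library, and the peaks of TTR1 also covered neighbouring genes. None of the 3 marked genes passed the test in either mutant.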

How the data were processed

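For every H3K4me3 library the authors gave a list of its own peaks, each with a position and a score. The submitters' processing notes name, with no roles, the build TAIR10 and the tools MACS 1.4, Bowtie2 2.2.8, deepTools 2.4.1 and ChIPseeker. The score is the authors' deposited value per peak; its control is not given in the labels. Depth is unknown, so no counting interval is given.

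Peaks on chromosomes 1 to 5 were kept. Genes came from a RefSeq table of the assembly TAIR10.1, which has no strand. Shifting it in steps of 100 bp gave the best overlap with Col-0 peaks at -100, 0 or 100 bp, depending on the chromosome. Printed coordinates are those of peaks (TAIR10). No sequence was used. Log2 values were computed from bp of peak. limma 3.58.1 in R 4.3.3 fitted 6 libraries with genotype as the only term, for genes with at least 200 bp of peak in at least 2 libraries. Python 3.11.15, pandas 2.3.3, numpy 2.4.6, scipy 1.17.1 and matplotlib 3.10.9 were used. The procedure was tested on simulated data built from genes with a peak in all 6 libraries. That test does not cover genes without a peak in a genotype, such as WRKY54, or peaks that merge or split, as at WRKY18. The alternatives tried were other pseudocounts (50 and 1000 bp), filters, windows, peak selections, centring, a replicate block, other variance models and leaving out libraries, where the lone library left was assumed to vary like the others.

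Members and gene lists were chosen with earlier results of these data known. Genes given in every library were those called, gained, lost or present in some libraries only, the 4 largest changes per direction and mutant and the 3 widest and narrowest among members with a peak in all libraries, and a list of 15 well-studied members and 8 pathway genes. POLAR, AT1G80850 and PRA1.B6 are neighbours that decide a value.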

Additional observations from a re-analysis of the deposited data

How the results depend on the processing

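WRKY54 was called in both mutants under each of the 15 alternatives in which it could be tested. All of these kept Col-0 at 0 bp, so the repeated call was nearly fixed in advance and adds no support. It could not be tested at a score of 100 or more, nor among genes with a peak in all 6 libraries. WRKY18 was called under 11 of 17 in jmj28-2 (limma adjusted p of 0.00745 to 0.473) and 7 of 17 in atx1/2 (0.0108 to 0.664), and was shorter under all of them. Members called fell from 2 to 1 in jmj28-2 and to 0 in atx1/2 among genes with a peak in all 6 libraries, which leaves WRKY54 out. They fell to 1 in each mutant over gene bodies alone and with the replicate block, and to 1 in atx1/2 with only the 4 libraries compared. At a score of 100 or more, 1 member, WRKY26, was called between the mutants, from a neighbour's peak against 0 bp. At that score 0 members gained or lost a peak in atx1/2. The 1 in jmj28-2 was then WRKY26, lost, and no longer WRKY54. Leaving out single libraries gave 1 to 2 members called in each mutant and 0 to 1 between them, where the 1 was WRKY54 without jmj28-2 replicate 2 and WRKY26 without atx1/2 replicate 2. Over all genes, 234, 298 and 237 calls in jmj28-2, atx1/2 and between the mutants became 57, 85 and 61 among genes with a peak in all 6 libraries. Same-numbered libraries did not deviate together (r of 3.80e-05 to 0.0325 between genotypes), so the block rests on a number alone.

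Of changes that had not passed, these turned sign. WRKY6 in jmj28-2 was -1.86 and WRKY70 in atx1/2 was -0.0153 at a score of 100 or more, and WRKY40 in atx1/2 was 0.0041 over its gene body. At that score WRKY6 had 2736 and 0 bp in jmj28-2. WRKY70 then had 1988 and 0 bp in Col-0 and 1942 and 0 bp in atx1/2. The WRKY40 body leaves out the 138 and 172 bp of the neighbour's peak in Col-0. No further cause was tested. Without single libraries the changes in jmj28-2 ran from -0.52 to 0.27 for WRKY43, -0.0012 to 0.15 for WRKY6, -0.0153 to 0.19 for WRKY47 and -0.0155 to 0.19 for WRKY32. In atx1/2 they ran from -1.35 to 0.0080 for WRKY26, -0.0055 to 0.20 for WRKY47 and -0.056 to 0.39 for WRKY70. WRKY26 in atx1/2 passed without atx1/2 replicate 2 (adjusted p = 0.0132) and at a score of 100 or more (5.56e-05), where the remaining bp were a neighbour's; at that score it also passed in jmj28-2 (7.05e-06), with no peak left.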
